A study of Mus musculus with 8 samples.

Results

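The S100 family genes described here were the 10 listed members S100a1, S100a4, S100a6, S100a8, S100a9, S100a10, S100a11, S100a13, S100a16 and S100b, chosen by name from the 16 S100 genes (1 pseudogene, S100a11-ps with 3 UMIs, among them) in the expression tables of mouse brains with and without GL261 glioma. The tables list 32502 genes in all. Of the 10 members, 9 passed the filter of at least 30 cells with a UMI (unique molecular identifier, 1 count per captured mRNA molecule), and S100a9 did not. In the GENCODE annotation of GRCm38, 9 members lie on chromosome 3 within 3.05 Mb, from base 90511034 to base 93564643, and S100b lies on chromosome 10 at 76253853 to 76261159.

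S100 proteins are small EF-hand proteins that bind calcium, change shape and then grip a target protein, mostly as dimers. Inside cells they link calcium to the cytoskeleton and to membranes. S100a10 and S100a11 pair with annexins, S100a4 binds the heavy chain of non-muscle myosin, and S100a6 binds the calcyclin-binding protein Cacybp. Some members are also released and act on receptors such as RAGE (Ager) and Tlr4, which is best known for the S100a8/S100a9 complex of neutrophils. In the brain S100b is the classical glial member, made by astrocytes, ependyma and cells of the oligodendrocyte lineage.

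The libraries were made by Drop-seq, a droplet method in which each cell's mRNAs are caught on a barcoded bead and read from the 3′ end. There were 8, 1 for each genotype and state. Wild-type (WT, Irg1/Acod1 +/+) and knock-out (KO, Irg1/Acod1 -/-) C57BL/6 mice (C57BL/6N in the study's methods) were either naive or carried GL261, a mouse glioma line of the same strain background, grown from 500 cells. The labels place them in the right striatum and the study's methods in the frontal cortex. Tumours were taken at an early stage (5 to 10 mm3), an intermediate stage (20 to 25 mm3) and a late stage (30 to 35 mm3). The KO allele carries a cassette between exons 3 and 5 of Acod1, the enzyme that makes itaconate in activated macrophages. Each tumour-bearing library came from 1 mouse, and the labels of each naive library name 2 mice. Genotype and sex cannot be told apart at the early stage (WT female, KO male) or the intermediate stage (WT male, KO female), and both late mice were male. Ages are not given in the sources used here. Brains were perfused and myelin was depleted with beads before capture.

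After filtering, 5698 cells were kept, 454 to 1000 per library, with a median of 2597.5 to 5637.5 UMIs per cell. Cells were clustered without the S100 genes and named from marker lists that hold no S100 gene. The classes were tumour cells (3396), macrophage-like cells (418, called TAM II below, for tumour-associated macrophages), microglia-like cells (378, called TAM I in tumour-bearing brains), oligodendrocytes (367), astrocytes (271), endothelial cells (269), lymphocytes (186), ciliated ependyma (80), choroid plexus epithelium (67), oligodendrocyte precursors (64), dendritic cells (61), neuroblasts (47), mural cells and fibroblasts (44) and neurons (36). Dendritic cells were not a clean class, since 36 of the 61 sat in a cluster led by Il1b, H2-Ab1 and Ccl17 whose next-best name was macrophage. The 6 lymphocytes of the WT intermediate library together held 5 of the 9 lymphocyte markers, with Trac, Cd3e, Cd3g and Cd3d at 0. That library gave the highest lymphocyte levels of S100a6, S100a10 and S100a11 below. Libraries shared at most 2 barcodes. The targeted gene went against the labels in part. Acod1 had 27, 6 and 33 UMIs in the TAMs of the early, intermediate and late libraries labelled KO, against 140, 5 and 4 in WT, so "KO" below means the library labelled KO. In CPM, UMIs of a gene per 1000000 UMIs of the summed cells, Acod1 in TAMs was 57.4, 11.6 and 62.2 in the libraries labelled KO and 164, 48.9 and 20.0 in WT.

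Levels below are CPM of the summed cells of 1 class in 1 library, wherever the class had at least 5 cells. UMIs count 3′ ends, so levels of different genes can be compared without a length correction. In kept cells the members spanned more than 3 orders of magnitude, from 36129 UMIs of S100a6, 18818 of S100a10, 13510 of S100b, 7642 of S100a11 and 7433 of S100a4 to 58 of S100a8 and 10 of S100a9. S100a16, S100a1 and S100a13 lay between, with 4724, 4667 and 4477 UMIs. Tumour cells held 90.7% of the S100a6 UMIs, 88.9% of the S100a10 UMIs, 87.7% of the S100b UMIs and 87.5% of the S100a4 UMIs, but 62.0% of those of S100a11. Beside these shares, tumour cells held 77.1% of the UMIs of all genes.

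**Figure D1:**
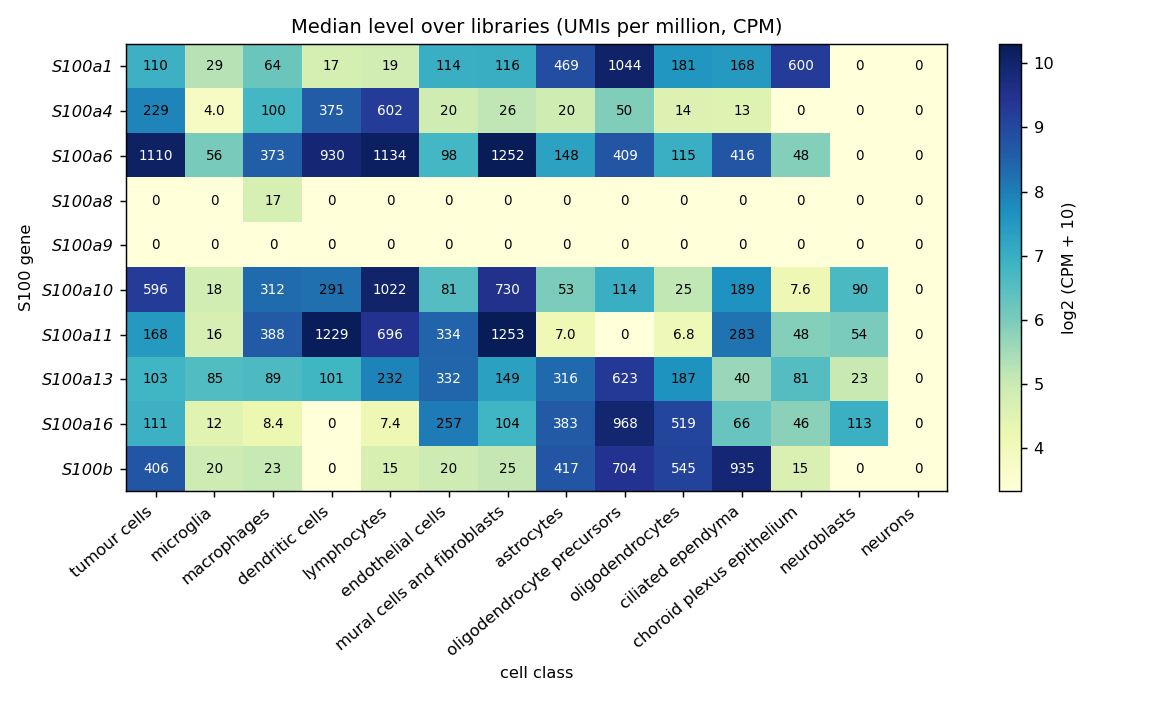
Median level of each member in each cell class, in CPM (colour and number), over the libraries with at least 5 cells of the class; rows are the 10 genes and columns the 14 classes. S100a6, S100a11 and S100a4 have high medians in lymphocytes and dendritic cells, S100a6, S100a10 and S100a11 in lymphocytes and in mural cells and fibroblasts, while S100a1, S100a16, S100a13 and S100b are high in oligodendrocyte precursors.

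Over the 79 class-by-library sums the members formed 2 loose sets. Pearson's r of log2(CPM + 10) was 0.58 to 0.74 among S100a4, S100a6, S100a10 and S100a11, and 0.48 to 0.74 among S100a1, S100a13, S100a16 and S100b. Between the sets it was -0.31 to 0.34. The sets were drawn after these values were seen, and the sums share libraries and their free RNA, so the values are a description without a test.

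S100a10, which holds annexin A2 at the inner face of the plasma membrane, had its highest median in lymphocytes, at 1022 CPM with a range of 560 to 1337. Mural cells and fibroblasts followed at 474 to 2461 with a median of 730, tumour cells at 342 to 694 with a median of 596, and TAM II at 234 to 560.5 with a median of 312. Each of these ranges overlapped the next. The median of mural cells and fibroblasts includes 2 naive sums, whereas lymphocytes had no naive sum of at least 5 cells. Over tumour-bearing libraries alone it was 1640, on 2 sums, against 1022 in lymphocytes. With called doublets removed, mural cells and fibroblasts led with a median of 1782 against 1002 in lymphocytes.

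S100a11, which pairs with annexin A1 and is used in membrane repair, had another order. Mural cells and fibroblasts led with 665 to 4243 CPM and a median of 1253, and overlapped the classes that followed. Dendritic cells held 930 to 2048 CPM with a median of 1229, lymphocytes 517 to 1862 with a median of 696, TAM II 288 to 728 with a median of 388 and endothelial cells 169 to 789 with a median of 334. Tumour cells were lower at 89.8 to 196 with a median of 168, below every TAM II and dendritic cell sum. TAM I and naive microglia together had a median of 16.1 CPM.

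S100a6, also known as calcyclin and first found in growing cells, had its highest median in mural cells and fibroblasts (71.2 to 6237 CPM, median 1252). It reached 681 to 1982 CPM in lymphocytes (median 1134), 911 to 1321 in tumour cells (median 1110) and 738 to 1502 in dendritic cells (median 930). These ranges overlapped. Free RNA has to be set beside this gene: in the low-UMI barcodes of each tumour-bearing library (the lowest 1000 of the 3000 by UMIs, used here as a gauge of free RNA and debris) S100a6 stood at 434 to 1364 CPM, against 55.7 to 74.2 in the naive libraries. The part of free RNA in the S100a6 level of the non-tumour classes was not tested.

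S100a4, a member tied to cell movement that binds non-muscle myosin, was led by lymphocytes at 454 to 977 CPM (median 602) and dendritic cells at 317 to 2158 (median 375). Tumour cells held 104 to 323 (median 229) and TAM II 6.97 to 189 (median 99.6). Lymphocytes were above tumour cells in range, with no overlap, whereas dendritic and tumour cells overlapped by a few CPM. With Leiden clustering the dendritic median was 1377 and the lymphocyte median stayed at 602, so the order of these leading classes depends on the clustering.

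**Figure D2:**
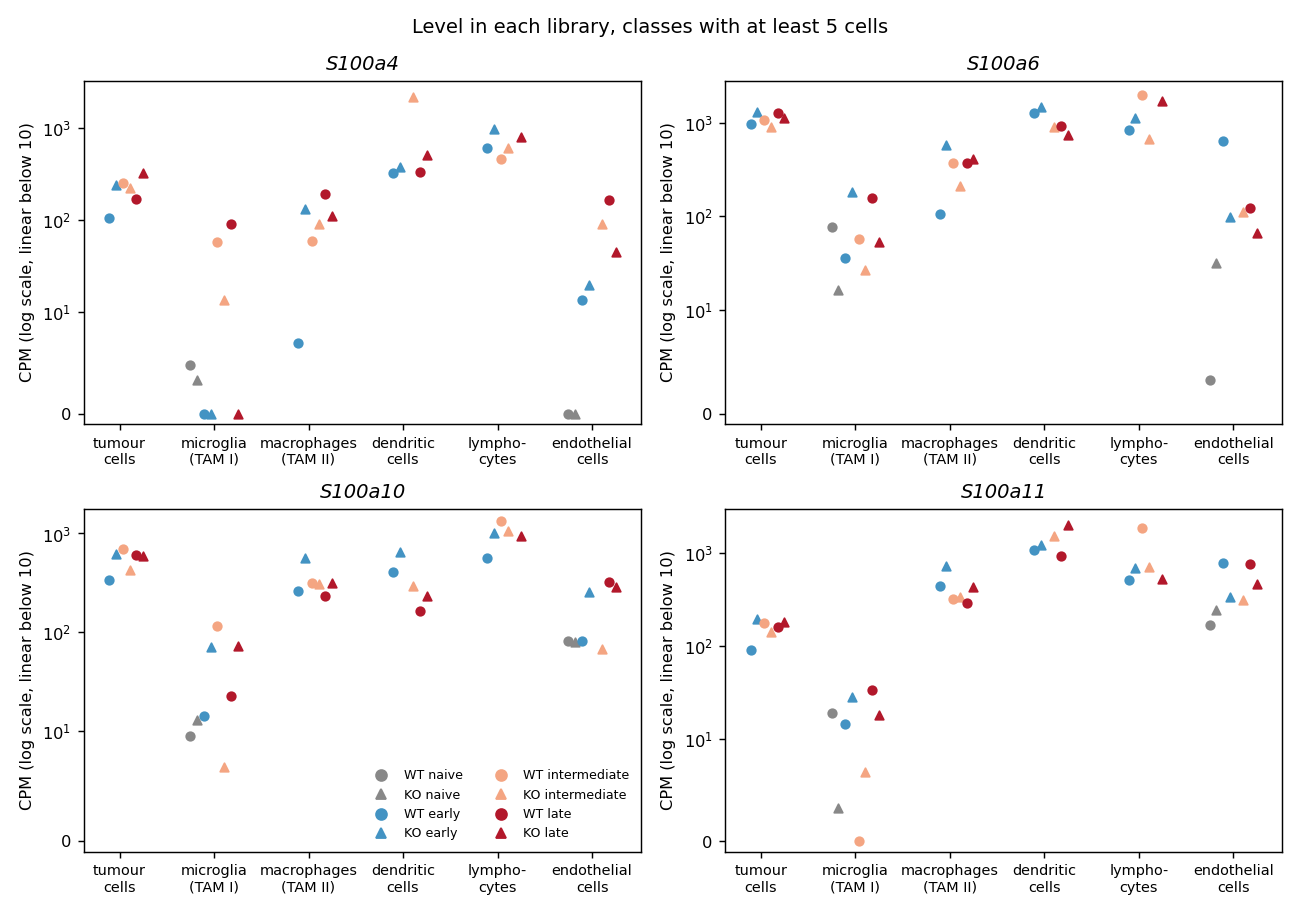
Levels of S100a4, S100a6, S100a10 and S100a11 in CPM (symmetric log axis) in 6 cell classes, 1 point per library with at least 5 cells. TAM II points of S100a11 (288 to 728) lie above all TAM I points (0 to 33.7) and above all tumour-cell points (89.8 to 196).

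Next, the 2 myeloid classes of the tumour were compared. TAM I are the microglia-like cells, which keep the markers of resident microglia, and TAM II the macrophage-like cells, which carry those of cells that enter from blood. All 8 microglia markers were detected in every TAM I sum, at a summed 5181 to 8463 CPM against 15490 to 15880 in naive microglia, and all 9 macrophage markers in every TAM II sum. S100a11, S100a10, S100a4 and S100a6 were higher in TAM II in 6 of 6 tumour-bearing libraries each. Of the 10 members 6 had enough UMIs for the test (edgeR's quasi-likelihood test with library as a block, Benjamini-Hochberg adjustment over 3694 genes). Of these 6, 4 were called higher and 0 lower at an adjusted p of 0.05. Over all genes tested 13.8% were called higher in TAM II and 13.3% lower. The median log2 fold change was 2.08 over the 6 members and 0.06 over all genes, and members such as S100a11 entered the test through TAM II, where their UMIs were, so the count itself carries no weight.

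S100a11 was 288, 388 and 728 CPM (lowest, median, highest of 6 libraries) in TAM II and 0, 16.1 and 33.7 in TAM I. The groups did not overlap, and the TAM I libraries held 11 UMIs in all against 935. The log2 fold change was 4.58 (SE 0.31, adjusted p = 3.23e-09 by edgeR).

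S100a10 was 234, 312 and 560.5 CPM in TAM II and 6.73, 46.5 and 115 in TAM I. Again every TAM II library stood above every TAM I library, with a log2 fold change of 3.37 (SE 0.32, adjusted p = 2.61e-07 by edgeR).

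S100a6 was 106, 373 and 583 CPM in TAM II and 26.9, 55.7 and 183 in TAM I. The ranges overlapped because the WT early TAM II library was low (106) and the KO early TAM I library high (183), yet within each library TAM II was higher. The log2 fold change was 1.93 (SE 0.26, adjusted p = 1.28e-05 by edgeR).

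S100a4 was 6.97, 99.6 and 189 CPM in TAM II and 0, 6.73 and 90.0 in TAM I, where 3 of 6 libraries had no UMI. Its log2 fold change was 2.23 (SE 0.50, adjusted p = 0.00248 by edgeR), with overlapping groups. S100a13 gave a log2 fold change of -0.003 (SE 0.36, adjusted p = 0.996 by edgeR) and S100b one of 0.85 (SE 0.63, adjusted p = 0.34 by edgeR). S100b was called with Leiden clustering (1.65, adjusted p = 0.0382 by edgeR), the 1 call in the 11 alternatives that tested it. The remaining 4 members were not tested for want of UMIs, S100a16 among them with 12 UMIs in TAM II and 6 in TAM I.

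The summed tumour markers moved with this contrast. The summed level of the 7 tumour markers was 188 to 1071 CPM in TAM II and 88.9 to 288 in TAM I, higher in TAM II in 6 of 6 libraries. In both classes 3 to 4 of the 7 were detected, and Gm14139, Dppa2 and Etv2 were at 0. Cd44 was among the 7, and the sum was not split by gene, so which cells made this RNA was not tested. For S100a11 the TAM II level exceeded that of tumour cells and that of low-UMI barcodes of the same library (117 to 274 CPM) in 6 of 6 libraries each. For S100a10 it exceeded the tumour cells in 0 of 6 and the low-UMI barcodes in 2 of 6, and for S100a6 it exceeded either in 0 of 6. For S100a4 the count was 1 of 6 against tumour cells and 0 of 6 against low-UMI barcodes. What part free tumour RNA had in these 3 genes was not tested.

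The starts of these genes differ in sequence. Windows of RefSeq (GRCm38.p6, 250 bases before the start) were found for 9 of the 10 members, with none for S100a10. They were searched on both strands for 4 motifs, as were 32851 windows in all. The TATA box, searched as TATAAA, was in 12.4% of all windows. The AP-1 motif, searched as TGANTCA, was in 6.75%. The GC box, searched as GGGCGG, was in 32.7%, and the CCAAT box in 33.8%. No matches named here overlapped. The stretches just upstream of S100a4 (chr3:90603630-90603769), S100a6 (chr3:90612754-90612881) and S100a11 (chr3:93520356-93520487) are shown on the plus strand, 5′ to 3′. The TATA box, the AP-1 motif and the GC box are in capitals. These 3 genes are shown because they were called higher in TAM II and had a window, which S100a10, also called higher, did not. A match is a description of the letters, not a site in use.
S100a4: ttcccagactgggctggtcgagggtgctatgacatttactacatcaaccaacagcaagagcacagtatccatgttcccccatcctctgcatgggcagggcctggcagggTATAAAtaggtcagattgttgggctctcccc
S100a6: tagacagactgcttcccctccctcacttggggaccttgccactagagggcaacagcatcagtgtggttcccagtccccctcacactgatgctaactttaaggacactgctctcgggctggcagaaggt
S100a11: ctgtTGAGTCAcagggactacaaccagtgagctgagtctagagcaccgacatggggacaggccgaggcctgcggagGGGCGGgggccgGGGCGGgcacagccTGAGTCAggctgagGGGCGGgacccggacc

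Counted from the RefSeq start, S100a4 had a TATA box at -31. In the S100a11 window there was no match to TATAAA, but AP-1 motifs at -136 and -38 and GC boxes at -64, -52 and -24. The stretch of S100a6 held none of these 3 motifs, and its 250-base window held a CCAAT at -228.

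Tumour cells were compared with all other named cells of the same 6 libraries. S100a6, S100a10 and S100b were higher in tumour cells, and S100a11, S100a13, S100a1, S100a16 and S100a8 lower. Of the 9 members tested (edgeR with library as a block, 15642 genes), 3 were called higher and 5 lower. Over all genes 30.3% were called higher and 33.9% lower, so a call is common in this contrast. The median log2 fold change was -0.47 over the 9 members and 0.01 over all genes. The other cells are a mixture of glia, vessels and immune cells whose shares differ between libraries.

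S100a6 was 911, 1110 and 1321 CPM (lowest, median, highest) in tumour cells against 320.4, 564.5 and 1160 in other cells. Tumour cells had more of it within each of the 6 libraries, although the ranges overlapped. The log2 fold change was 0.90 (SE 0.15, adjusted p = 0.000285 by edgeR).

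S100a10 was 342, 596 and 694 CPM in tumour cells against 191, 359 and 484 in other cells, higher in 6 of 6 libraries with overlapping ranges. The log2 fold change was 0.52 (SE 0.14, adjusted p = 0.00589 by edgeR).

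S100b, a glial gene, was at 246, 406 and 589.5 CPM in the glioma cells against 113, 137 and 287 in other cells, and was higher in glioma cells in 5 of 6 libraries (log2 fold change 1.25, SE 0.26, adjusted p = 0.00132 by edgeR). S100a4 gave 0.33 (SE 0.15, adjusted p = 0.0822 by edgeR, higher in 5 of 6) and was not called. It was called in 6 of 16 alternatives, among them those without the WT early library (0.48, adjusted p = 0.0301 by edgeR) and without the KO intermediate library (0.53, adjusted p = 0.0115 by edgeR).

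S100a11 went the other way, with 89.8, 168 and 196 CPM in tumour cells and at least 333 in every sum of other cells. The groups did not overlap, and the log2 fold change was -1.74 (SE 0.14, adjusted p = 9.43e-07 by edgeR). S100a13, which helps to export Fgf1 from cells, was lower in 6 of 6 libraries without overlap (81.5 to 114 against 148 to 214 CPM, log2 fold change -0.81, adjusted p = 0.000176 by edgeR). Its call was lost against TAM I and TAM II alone, in place of all other cells (-0.20, adjusted p = 0.306 by edgeR). S100a1 and S100a16 were lower in 5 of 6 libraries each (-0.47 and -0.59, adjusted p = 0.00689 and 0.012 by edgeR). Against TAMs alone both turned and were higher in tumour cells (0.63 and 3.63, adjusted p = 0.0185 and 1.92e-08 by edgeR). S100a8 rested on 3 UMIs in tumour cells and 46 in the others, 45 of these in TAM II (adjusted p = 0.000187 by edgeR). It entered the test through those other cells, so its call carries no weight.

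**Figure D3:**
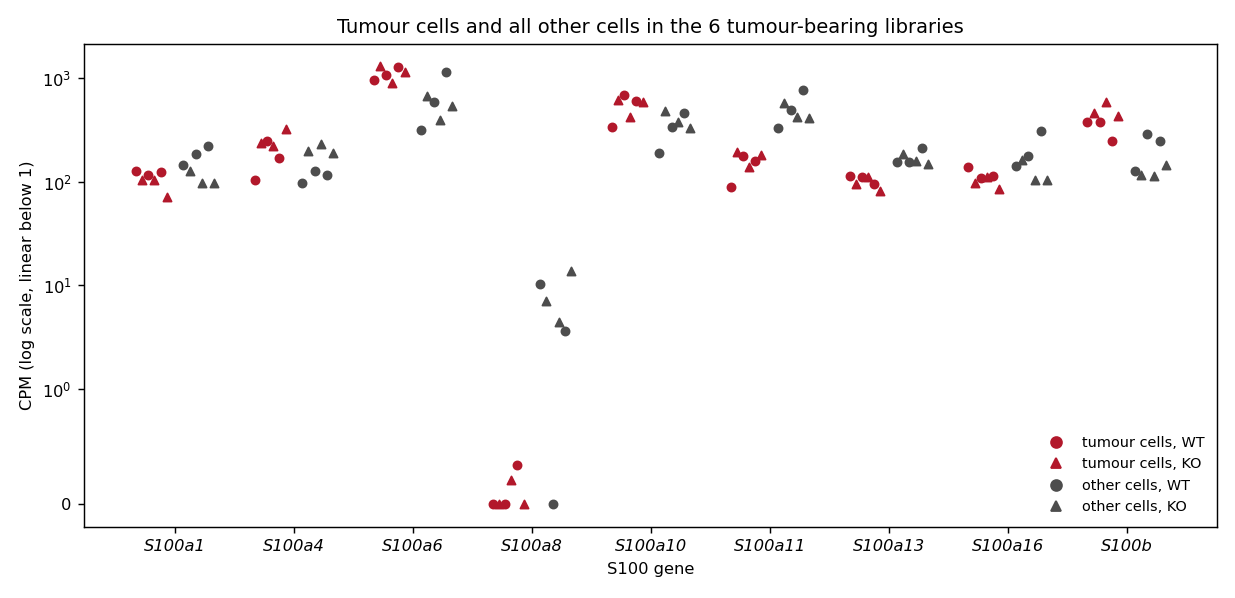
Levels of 9 members in tumour cells and in all other named cells of the 6 tumour-bearing libraries, in CPM on a symmetric log axis. Each point is a library, with colour for tumour or other cells and shape for WT or KO. Within libraries, S100a6 and S100a10 were higher in tumour cells in 6 of 6, and S100a11 and S100a13 were lower in 6 of 6.

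The glial members had their highest levels outside the tumour cells. S100a1, best known from heart muscle, where it tunes calcium release, was led by oligodendrocyte precursors at 960 to 1527 CPM (median 1044), clear of the choroid plexus epithelium at 358 to 916 (median 600). Astrocytes held 341 to 737 (median 469) and oligodendrocytes 121 to 329 (median 180.5), with no overlap between these last classes.

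S100a16, a widely expressed member, followed the oligodendrocyte lineage, with 560 to 1699 CPM in precursors (median 968) and 377 to 805 in oligodendrocytes (median 519). Astrocytes held 348 to 648 (median 383) and endothelial cells 112 to 530 (median 257), and each of these ranges overlapped the next. In TAM II it was at 0 to 18.02 CPM.

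S100a13 ran from 395 to 784 CPM in oligodendrocyte precursors (median 623) to 196 to 590 in endothelial cells (median 332), 201 to 416 in astrocytes (median 316) and 189 to 314 in lymphocytes (median 232), again with overlapping ranges.

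S100b was highest in ciliated ependyma, the cells with motile cilia that line the ventricles, at 832 to 1006 CPM (median 935). Oligodendrocyte precursors held 450.5 to 1112 (median 704), oligodendrocytes 290 to 747 (median 545), astrocytes 278 to 649 (median 417) and tumour cells 246 to 590 (median 406). Neighbours in this order overlapped, while ependyma stood clear of oligodendrocytes, astrocytes and tumour cells. Low-UMI barcodes held 315 to 477 CPM of S100b in the naive and 382 to 541.5 in the tumour-bearing libraries. These levels overlap the ranges of all classes named here but ependyma. Tumour cells were above the low-UMI barcodes of their library in 3 of 6 libraries. The part of free RNA in these levels was not tested.

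S100a1 (minus strand) and S100a13 (plus strand) start back to back, 42 bases apart, and their level correlation over the 79 sums was r = 0.57. The bases between their annotated starts (chr3:90514393-90514434, GRCm38, plus strand) hold none of the 4 motifs and are shown because both genes share them.
Between S100a1 and S100a13: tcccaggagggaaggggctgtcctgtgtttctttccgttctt

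S100a8 and S100a9, whose proteins form calprotectin of neutrophils and monocytes, were rare. All 24000 barcodes of the tables together held 179 UMIs of S100a8 in 50 barcodes and 98 UMIs of S100a9 in 17. Most of these lay in 5 barcodes that had both genes, with 113 S100a8 and 86 S100a9 UMIs, and 4 of the 5 had too few genes to be kept. In the WT intermediate library 1 barcode of 1211 UMIs held 44 and 40 UMIs of the pair (6.94% of its RNA) with 2 UMIs of the neutrophil receptor gene Cxcr2. In the WT early library 1 barcode of 236 UMIs held 30 and 15 (19.1%) with 6 UMIs of Retnlg, another neutrophil gene. All 5 held a UMI of at least 1 neutrophil marker. The fifth, in the WT naive library with 5134 UMIs, was classed with oligodendrocytes and held 8 of each.

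The other S100a8 UMIs came without S100a9. There were 66 in 45 barcodes, and 45 of them lay in 26 macrophage-like cells, which is 26 of 418 cells of that class. No such barcode had more than 7 UMIs. The S100a8 level of TAM II was 0 to 33.1 CPM with a median of 16.5. Among the 4 macrophage-like clusters it was 50.3 CPM in the one led by Il1b, Lyz2 and Ly6c2 and 8.63 to 29.9 in the rest. The 50.3 CPM rested on 13 UMIs in 6 of 101 cells. The other clusters had a UMI in 8 of 123, 8 of 117 and 4 of 77 cells. For the Ly6c2 cluster the next-best class by markers was neutrophils (score 2.33 against 6.76 for macrophages), while for the other 3 it was microglia. In the TAM II sums 1 to 4 of the 9 neutrophil markers were detected, and Cxcr2, Retnlg, Mmp9, Ngp and Ltf were at 0 in each sum. The Ly6c2 cluster also had the highest S100a4 (174 against 36.6 to 92.0 CPM), S100a6 (577 against 173 to 433) and S100a11 (627 against 378 to 528). Clusters are made from these cells, so these values are a description. S100a8 had a TATAAA 30 bases before its RefSeq start, and the 30 bases there (chr3:90669029-90669058, plus strand, TATAAA in capitals) are shown as the counterpart of the one in S100a4. This stretch overlaps an exon of the GENCODE annotation, which starts S100a8 further upstream at 90668978.
S100a8: caagctttcctcTATAAAagcagctgacac

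**Figure D4:**
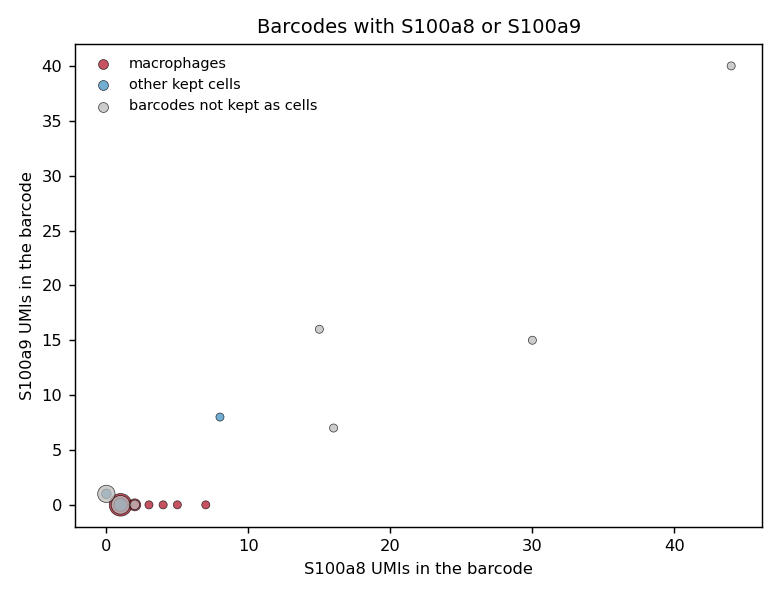
UMIs of S100a8 (horizontal) and S100a9 (vertical) per barcode over all 8 tables, with the size of a point giving the number of barcodes at that place. The 5 barcodes with both genes stand away from the axes, and macrophage-like cells lie along the S100a8 axis at 7 UMIs or fewer.

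Next, resident cells of tumour-bearing brains were compared with those of naive brains (edgeR with genotype as a term, 2 naive libraries against 5 or 6). In microglia 0 of 2 tested members were called in either direction, where 8.9% of the 3271 genes were called higher and 6.39% lower. At an unadjusted p under 0.05 there were 1000 genes, and DESeq2 called 258 higher and 150 lower, again without a member. S100a6 in microglia was 76.2 and 16.4 CPM in the naive libraries and 26.9 to 183 (median 55.7) in the tumour-bearing ones, with overlap (log2 fold change 0.94, SE 0.69, adjusted p = 0.385 by edgeR).

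Endothelial cells gave the one call among these contrasts. S100a11 was 169 CPM in the WT naive and 244 in the KO naive library, and 789 in WT early, 334 in KO early, 312 in KO intermediate, 774 in WT late and 464 in KO late. All 5 tumour-bearing values lay above both naive values. The log2 fold change was 1.32 (SE 0.36, adjusted p = 0.0347 by edgeR), and 1 of 4 tested members was called higher and 0 lower, where 4.73% of 1354 genes were called higher and 0.812% lower. The call was lost with DESeq2 (1.30, adjusted p = 0.0561) and without any of 4 single libraries: WT naive (0.58, adjusted p = 0.996), WT early (1.11, adjusted p = 0.14), WT late (1.28, adjusted p = 0.062) and KO late (1.30, adjusted p = 0.0716, all by edgeR). It was also lost with no filter (1.13, adjusted p = 0.133), with at least 10 cells per sum (1.28, adjusted p = 0.062) and with doublets removed (1.20, adjusted p = 0.0999), all by edgeR. Over 18 alternatives S100a11 was called in 10.

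S100a6 in endothelial cells did not pass the filter on low counts. It was 3.26 CPM (1 UMI) and 31.6 CPM (10 UMIs) in the naive libraries, and 648, 98.4, 112, 122 and 66.3 CPM in WT early, KO early, KO intermediate, WT late and KO late. The groups did not overlap. Of the 96 UMIs of the WT early library 29 came from 1 cell, and without that cell the level was 490. The gene was tested in 10 alternatives, among them the one with no filter, and was called in 9 of them (log2 fold change 3.43 to 6.65). It was not called without the WT naive library, a fit that left 1 naive library, and without WT early it was not tested. S100a6 entered these tests through the tumour-bearing sums, where its UMIs were, so the count of calls carries no weight. S100a4 had no UMI in either naive library, where 3 UMIs would be 9.77 and 9.49 CPM, and stood at 13.5 to 163 CPM in the tumour-bearing libraries on 1 to 4 UMIs each. S100a10 was 81.4 and 79.1 CPM against 66.9 to 326 (log2 fold change 1.13, adjusted p = 0.398 by edgeR). Tumour markers in these endothelial sums moved the same way, from 3.16 to 6.51 CPM in naive to 54.0 to 287 in tumour-bearing libraries (1 of 7 and 2 to 4 of 7 detected), and macrophage markers were at 117 to 278 and 66.9 to 1458. Their part was not tested.

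In astrocytes 0 of 5 tested members were called in either direction, where 1.44% of 625 genes were called higher and 1.12% lower (53 genes at an unadjusted p under 0.05, and 9 higher and 5 lower by DESeq2). S100a6 was 137 and 148 CPM in the WT and KO naive libraries and 117, 501, 52.6, 806 and 370 in WT early, KO early, KO intermediate, WT late and KO late. The spread among tumour-bearing libraries was wider than the difference (log2 fold change 1.19, adjusted p = 0.525 by edgeR). It was called without the WT early library (1.63, adjusted p = 0.0264 by edgeR) and without the KO intermediate library (1.40, adjusted p = 0.0414 by edgeR). Tumour markers were at 10.5 to 23.0 CPM in naive and 14.6 to 564 in tumour-bearing astrocyte sums.

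In oligodendrocytes 0 of 5 tested members were called, where 1.58% of 2664 genes were called higher and 0.676% lower (278 genes at an unadjusted p under 0.05, and 44 higher and 18 lower by DESeq2). S100a6 was 49.0 and 80.4 CPM in naive and 27.2 to 322 in tumour-bearing libraries (log2 fold change 1.35, adjusted p = 0.282 by edgeR). S100b, which these cells make in the healthy brain, gave 0.50 (adjusted p = 0.564 by edgeR). S100a10 failed the filter, at 3.77 and 8.93 CPM in naive and 17.3 to 55.2 in tumour-bearing libraries, without overlap. It rested on 25 UMIs over 8 sums, and 3 UMIs would be 11.3 and 13.4 CPM in the WT and KO naive sums. Tumour markers in these sums moved the same way and without overlap, from 3.77 to 22.3 CPM (1 to 2 of 7 detected) to 44.9 to 374 (3 to 4 of 7), and their part was not tested.

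**Figure D5:**
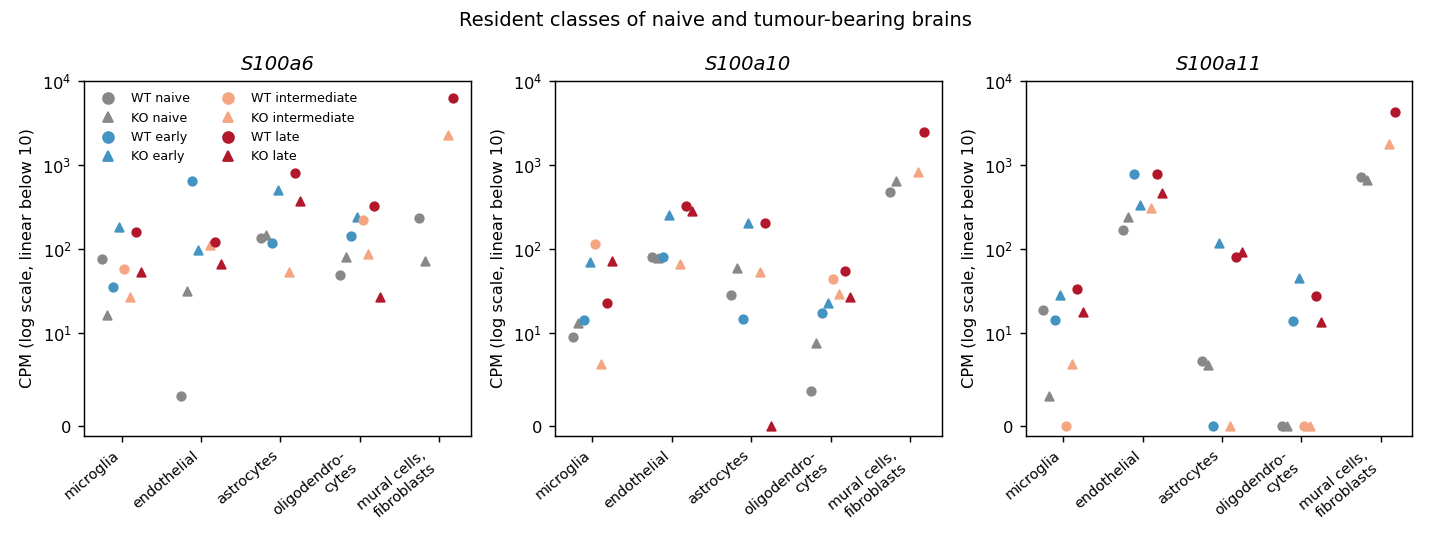
Levels of S100a6, S100a10 and S100a11 in 5 resident classes, in CPM on a symmetric log axis, 1 point per library with at least 5 cells and naive and tumour-bearing libraries side by side. In endothelial cells the 5 tumour-bearing points of S100a11 (312 to 789) lie above the 2 naive points (169 and 244), and in microglia the points of S100a6 overlap.

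Mural cells and fibroblasts had the widest spread, and only 4 libraries had 5 cells or more, so there was no test. S100a6 was 237 CPM in WT naive (95% exact Poisson interval 48.9 to 692) and 71.2 in KO naive (14.7 to 208), but 2267 in KO intermediate (1894 to 2692) and 6237 in WT late (5668 to 6847). The intervals cover counting error alone. S100a11 went from 711 and 665 CPM to 1796 and 4243, and S100a10 from 474 and 641 to 820 and 2461. The cells of this class were not alike in the 2 states. The smooth muscle gene Acta2 was 5369 and 2612 CPM in the naive sums and 575 and 2150 in the tumour-bearing ones, and the collagen gene Col1a1 was 316 and 285 against 3017 and 3677. The summed tumour markers, which include the collagen gene Col3a1 that fibroblasts also make, went from 214 and 316 CPM (1 to 3 of 7 detected) to 9448 and 9939 (3 to 4 of 7). The part of these shifts in the S100 levels was not tested.

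The design also asks whether the members differ between tumours of WT and KO hosts and along tumour growth. There was 1 library for each genotype and stage. Genotype is that of the host mouse, and GL261 cells were implanted in both genotypes. In tumour cells, KO against WT (stage as a block), 0 of 8 tested members were called in either direction. Of 14385 genes 0.00695% were called higher and 0.00695% lower by edgeR, 936 genes had an unadjusted p under 0.05, and DESeq2 called 51 higher and 13 lower. S100b was 376, 377 and 246 CPM in WT early, intermediate and late and 467.5, 589.5 and 434.5 in the matching KO libraries. It was higher in KO in 3 of 3 stages without overlap, at a log2 fold change of 0.64 (SE 0.18) whose adjusted p was 0.512 by edgeR. S100a4 was 104, 248 and 169 CPM in WT and 236, 222 and 323 in KO, higher in 2 of 3 stages (0.69, adjusted p = 0.704 by edgeR).

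In TAM I 0 of 2 tested members were called between genotypes, where 0% of 1849 genes were called higher and 0% lower (83 at an unadjusted p under 0.05, and 0 higher and 1 lower by DESeq2). In TAM II 0 of 8 tested members were called, where 0.0635% of 6301 genes were called higher and 0.0476% lower (260 at an unadjusted p under 0.05, and 2 higher and 3 lower by DESeq2). S100a4 in TAM II was 6.97, 58.9 and 189 CPM in WT early, intermediate and late and 130, 89.8 and 110 in KO, so that KO was higher at the first 2 stages and lower at the last. Its log2 fold change was 1.14 (adjusted p = 0.999 by edgeR). Without the WT late library it was 2.66 (adjusted p = 0.0462 by edgeR), and without the KO late library 2.66 (adjusted p = 0.00554 by edgeR), so the call depends on the late libraries.

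Between late and early tumours 0 of 8 members in tumour cells, 0 of 2 in TAM I and 0 of 8 in TAM II were called, where 0% of genes were called in either direction by edgeR in each class. At an unadjusted p under 0.05 there were 1046, 90 and 347 genes in the 3 classes. DESeq2 called 8 higher and 11 lower in tumour cells, 1 and 2 in TAM I and 0 and 0 in TAM II. S100b in TAM II stood at 6.97 and 22.5 CPM in WT and KO early, 23.5 and 16.3 at the intermediate stage and 81.1 and 73.7 late (log2 fold change 2.28, SE 0.62, adjusted p = 0.492 by edgeR). With Leiden clustering it was called (2.999, adjusted p = 0.0124 by edgeR), the 1 call in 14 alternatives. The 2 late values lay above the 4 others. Tumour cells and low-UMI barcodes of these libraries held far more S100b, the latter 382 to 541.5 CPM. S100a4 in TAM II gave 1.30 (adjusted p = 0.956 by edgeR), and 4.17 (adjusted p = 2.88e-05) without the KO early library and 3.39 (adjusted p = 0.00147) without the KO late library, both by edgeR. Its WT early level of 6.97 CPM was the lowest of the 6.

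Of the 11 binding partners and receptors listed for these proteins, 7 were tested between the TAM classes. Of these, 4 were higher in TAM II: Emb (4.83), a receptor for S100a8/S100a9, Ahnak (3.68), a large scaffold that S100a10 and annexin A2 hold at the membrane, and the annexins Anxa1 (3.29) and Anxa2 (2.44), as log2 fold changes by edgeR. Over all genes 13.8% were higher and 13.3% lower. The other 3, Bsg, Cacybp and Myh9, were not called. In tumour cells against other cells 9 partners were tested, 2 were higher and 5 lower, beside 30.3% and 33.9% of all genes. Cacybp (1.33, adjusted p = 2.21e-06), the partner of S100a6, and Anxa1 (1.08, adjusted p = 0.000246) were higher, and Fgf1 (-4.21), Myh9 (-1.62), Tlr4 (-1.33), Ahnak (-0.67) and Bsg (-0.46) lower, all by edgeR. Anxa2, the partner of S100a10, gave 0.21 and was not called there. In endothelial cells Anxa2 was higher in tumour-bearing brains (1.52, SE 0.39, adjusted p = 0.0219 by edgeR), the 1 call among 5 partners tested. No partner was called in microglia (3 tested), astrocytes (1) or oligodendrocytes (3), nor between genotypes or stages (8 tested in tumour cells, 3 in TAM I and 8 in TAM II). S100a14, an S100 gene that is no member, was higher in tumour cells (2.82, adjusted p = 0.0082 by edgeR) on few UMIs, and S100a3 gave 0.74 without a call.

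Likeness to other genes was measured over the 79 class-by-library sums among 4386 genes whose mean reached 50 CPM. The gene whose level most resembled S100a11 was Anxa2 (Pearson's r of log2(CPM + 10) = 0.909), followed by Crip1 (0.848) and Myl12a (0.794). For S100a10 these were Vim (0.796), Anxa2 (0.76) and Cnn2 (0.743). For S100a6 they were Lgals1 (0.696), Anxa2 (0.661) and S100a10 itself (0.657), so Anxa2 stood among the first 3 for all 3 of these members. S100b went with Plekhb1 (0.852), S100a16 with Fermt2 (0.807) and S100a1 with Sash1 (0.745). S100a4 went with Ifi203 (0.693), S100a13 with Cdc42se1 (0.66), S100a8 with Arg1 (0.652) and S100a9, on 10 UMIs, with Arsg (0.372). The sums share libraries and differ in depth, and the values are given without a p.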

How the data were processed

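The authors sequenced Drop-seq libraries (processing notes in the labels list bcl2fastq 2.0, STAR, GRCm38 and mm10) and deposited 1 table of UMI counts per library, genes by 3000 barcodes, unnormalized, with 2885345 to 9950713 UMIs. Intervals and floors (3 counts) cover counting error only.

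Cells were the top 1000 barcodes per library that had 1000 genes or more. Genes seen in fewer than 30 of the top barcodes were dropped before clustering but kept in the sums of UMIs. Cells were embedded by tSNE (Rtsne 0.17), clustered with HDBSCAN (scikit-learn 1.9.0) without S100 genes and named by markers. Of the endothelial cluster, 14 cells richer in mural markers were left out. Doublets were not removed in the main analysis. The Scrublet caller marked 95 cells, too few in some libraries, and 256 were removed in the alternative. UMIs were summed per class and library (at least 5 cells) and tested with edgeR 4.0.16 (TMM, filterByExpr, quasi-likelihood F test, R 4.3.3), with Benjamini-Hochberg adjustment over all genes tested. DESeq2 1.42.0, no filter, at least 10 cells, Leiden clustering (leidenalg 0.10.2), another seed, S100 genes kept, doublets removed, no block and leaving out each library were alternatives. The scripts were tested on simulated data. Genes were named by rule: all 10 members, listed partners and other S100 genes past the threshold, and the 3 most similar genes per member. The members and gene lists were chosen with earlier results of these data known. With 1 library per genotype and stage, stages stand in for replicates and p-values measure the spread between these libraries.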

Additional observations from a re-analysis of the deposited data

Results flagged for a closer look

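Of 70 groups of 4 to 10 libraries (1 member in 1 class), 9 had a single library far from the others by Dixon's criterion, which chance alone meets in about 1 group in 20. In TAM II, the KO early library was the highest for both S100a10 (560.5 CPM, next 318) and S100a11 (728.2 CPM, next 441). In lymphocytes of the WT intermediate library, S100a11 was 1862 CPM (next 713.5) on 78 UMIs, 47 of them in 1 cell, and S100a1 was 119.4 CPM (next 29.7) on 5 UMIs. In dendritic cells, S100a4 was 2158 CPM (next 503.5) in KO intermediate, with UMIs in 13 of 15 cells, and S100a1 was 317.2 CPM (next 24.3) in WT early on 7 UMIs. In endothelial cells, S100a6 was 647.7 CPM (next 122) in WT early, with UMIs in 8 of 33 cells. In the 5 microglia-like cells of WT intermediate, S100a16 was 57.56 CPM on 1 UMI and S100b 115.1 CPM on 2 UMIs of 1 cell.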

How the results depend on the processing

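No paired analysis was possible because no replicate numbers link libraries, with 1 for each genotype and state. The blocks by library or stage are part of the tests themselves. Of 1013 values of members under alternatives, 917 kept direction and side of the threshold, and 67 uncalled ones changed sign. Both reversals came from setting tumour cells against TAM I and TAM II only: S100a1 0.63 and S100a16 3.63 (log2 fold change). The 4 calls in TAM II against TAM I held in every alternative in which the gene was tested. In tumour cells against others, S100a10 lost its call with no library block (0.41, adjusted p = 0.124), S100a1 with no filter (-0.30, adjusted p = 0.093) and S100a13 against TAM I and TAM II only (-0.20, adjusted p = 0.306), all by edgeR. Members called in endothelial cells (1) became 0 with DESeq2, 2 with no filter, 2 with Leiden clustering, 0 with doublets removed, 2 with endothelial and mural cells together (chosen after seeing the data) and 0 to 2 with 1 library left out. With no filter the 2 in endothelial cells were S100a4 and S100a6, which the main test did not cover, and S100a11 lost its call. In astrocytes (0) there was 1 with at least 10 cells per sum and 0 to 1 with 1 library left out, and in oligodendrocytes (0) 1 with no filter. In TAM II, KO against WT (0) gave 0 to 1 with 1 library left out, and late against early (0) 1 with Leiden clustering and 0 to 1 with 1 library left out. No member was tested for KO against WT in TAM I with no stage block. Of the class medians, 7 of 120 moved by over 1 SD with Leiden clustering, 1 of 140 with S100 genes kept and 7 of 140 with doublets removed, 4 of these last in mural cells and fibroblasts. Calls over all genes ranged from 7880 to 11309 (10043 in the main test) for tumour cells, 606 to 1336 (1004) for the TAM classes, 61 to 574 (500) for microglia, 25 to 224 (75) for endothelial cells, 4 to 36 (16) for astrocytes, 3 to 213 (60) for oligodendrocytes, 0 to 496 (2), 0 to 25 (0) and 0 to 91 (7) for KO against WT in tumour cells, TAM I and TAM II, and 0 to 371, 0 to 40 and 0 to 104 (0 each) for late against early. The cause of these changes was not tested. S100a8 and S100a9 were counted on few UMIs (58 and 10 in kept cells).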

Other observations

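The neuroblast class of the WT late library, 5 cells, held 1445 CPM of S100a16, 1311 of S100a6, 1231 of S100a11 and 1178 each of S100b and S100a1. These levels were near those of oligodendrocyte precursors for S100a16, S100b and S100a1. For S100a6 and S100a11 they were not, since precursors held 0 to 967 and 0 to 20.1 CPM. Leiden clustering and another tSNE seed both put 2 of the 5 cells, with 84.2% of the UMIs, among oligodendrocyte precursors.

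Over whole tables, all 3000 barcodes included, S100a8 stood at 7.33, 8.96, 4.42 and 0.754 CPM in the WT naive, early, intermediate and late libraries and at 1.39, 1.28, 3.25 and 2.33 in the matching KO libraries. The values of WT naive, early and intermediate and of KO intermediate rest mainly on the few barcodes that also held S100a9. In KO intermediate 16 of the 23 S100a8 UMIs lay in 1 such barcode.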
